A study of Rattus norvegicus with 12 samples.

Results

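The Myc family and the partners of Max were followed in primary cortical neuroglial cultures of rat, in 12 libraries of poly(A) RNA. The 9 genes were named by symbol, and they were chosen on results of these same libraries, in which several of them had been seen to differ between treatments. Of these 9 names, 8 were matched to a row each (Myc, Mycn, Mycl, Max, Mxd1, Mxd4, Mnt and Mlx), among 28111 gene names in all, and Mxd3 was not analysed here. Because the choice rested on the levels themselves, the levels and differences of the 8 genes are a description. No p-value is printed for them. The limma calls and call counts below rest on p-values from the same libraries, so for these genes they describe and do not test. Each of the 8 was above the minimum of 1 TPM in all 12 libraries, the lowest value being 3.11 TPM for Mxd1, so that none entered the comparisons through a single group.

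The cultures came from the cortex of newborn rat pups (postnatal day 0 in the labels, Wistar pups 1 to 2 days old in the study's methods) and were kept for 10 days in vitro, with cytosine arabinoside, which stops dividing glia, added on day 3. RNA was taken 4 h after an addition, and each of 4 groups held 3 libraries. The intact control (IC) received nothing, the EV group received extracellular vesicles at 10 µg/mL, the 3–100 kDa group received proteins of that size range at 15 µg/mL and the total secretome group received the whole secreted material at 45 µg/mL. The 3 preparations came from human glial progenitor cells made from induced pluripotent stem cells, so the donor cells were of another species than the cultures. The doses differed, and for this reason the kind of preparation and its dose cannot be told apart. The labels do not say whether the 3 libraries of a group were separate cultures. The study's methods mention repeats on unrelated cultures for its experiments in general, without tying libraries to them. The errors below measure the spread between libraries, and part of it may be technical. All comparisons with IC share the same 3 control libraries.

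Myc, Mycn and Mycl are basic helix-loop-helix leucine zipper transcription factors. Each binds DNA only as a pair with Max, preferably at the E-box CACGTG, and promotes transcription of genes of ribosome production, nucleotide synthesis and growth. Mxd1, Mxd4, Mxi1 and Mnt also pair with Max, bind the same sites and recruit Sin3 corepressors and histone deacetylases, so that both sides of the network draw on a common pool of Max. Mlx is a relative of Max that pairs with the glucose-responsive factors Mlxip and Mlxipl as well as with some Mxd proteins and Mnt. Mycn is best known from neural progenitors, Mxd genes from cells leaving the cell cycle, and Myc is an early response gene of many growth factor pathways.

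The promoters of Mycl, Mxd1, Mxd4 and Mnt, whose transcripts were lower with 3–100 kDa proteins than in IC, are given with that of Max so that the sequence the network binds can be seen in place. Promoter sequences of 7 of the 9 names, all but Myc and Mycn, were matched by symbol in RefSeq (build GRCr8), each a window of 300 bases that begins upstream of the transcription start and ends just after it. The windows are chr5:140559903-140560202 on the plus strand for Mycl, chr4:120675080-120675379 on the minus strand for Mxd1, chr14:80786531-80786830 on the plus strand for Mxd4, chr10:60197709-60198008 on the plus strand for Mnt and chr6:101395241-101395540 on the minus strand for Max. The motif CACGTG was searched on both strands, which for a palindrome is a single search, and it is in capitals where it occurs.
Mycl: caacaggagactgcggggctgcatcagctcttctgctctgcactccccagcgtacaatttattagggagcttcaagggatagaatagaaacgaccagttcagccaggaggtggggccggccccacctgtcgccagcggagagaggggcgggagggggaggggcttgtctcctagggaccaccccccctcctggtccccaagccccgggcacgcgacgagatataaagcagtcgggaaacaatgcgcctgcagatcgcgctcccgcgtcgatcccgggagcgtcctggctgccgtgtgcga
Mxd1: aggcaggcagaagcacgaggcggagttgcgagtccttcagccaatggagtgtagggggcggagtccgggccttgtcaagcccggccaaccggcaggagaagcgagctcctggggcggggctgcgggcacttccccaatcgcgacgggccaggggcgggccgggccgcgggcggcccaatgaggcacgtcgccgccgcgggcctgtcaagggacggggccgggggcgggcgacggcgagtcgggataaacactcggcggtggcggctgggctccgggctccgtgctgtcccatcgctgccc
Mxd4: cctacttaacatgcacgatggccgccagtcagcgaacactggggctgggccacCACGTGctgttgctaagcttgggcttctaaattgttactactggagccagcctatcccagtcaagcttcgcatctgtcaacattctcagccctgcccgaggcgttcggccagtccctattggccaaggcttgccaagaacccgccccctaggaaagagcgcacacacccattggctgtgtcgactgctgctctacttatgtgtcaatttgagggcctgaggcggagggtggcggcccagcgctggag
Mnt: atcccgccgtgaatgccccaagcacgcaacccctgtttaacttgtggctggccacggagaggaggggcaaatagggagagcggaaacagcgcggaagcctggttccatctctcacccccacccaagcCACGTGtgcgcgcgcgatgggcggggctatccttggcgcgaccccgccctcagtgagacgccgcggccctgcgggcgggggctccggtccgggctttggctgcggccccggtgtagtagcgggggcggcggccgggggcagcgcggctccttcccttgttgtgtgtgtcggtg
Max: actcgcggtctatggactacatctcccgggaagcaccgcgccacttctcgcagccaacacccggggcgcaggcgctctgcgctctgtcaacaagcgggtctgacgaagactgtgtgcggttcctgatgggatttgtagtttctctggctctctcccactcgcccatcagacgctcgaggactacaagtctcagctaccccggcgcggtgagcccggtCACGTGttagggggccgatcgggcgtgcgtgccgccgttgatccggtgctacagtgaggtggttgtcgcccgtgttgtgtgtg
The motif occurred once each in the windows of Mxd4, Mnt, Max and Mlx. It began at position −197 from the transcription start of Mxd4, −123 for Mnt, −33 for Max and −70 for Mlx. It was not present in the windows of Mycl, Mxd1 and Mxd3. Across all genes with a promoter sequence, 1943 of 27457 held it, which is 7.08%. A match describes the letters of the window and not binding.

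The levels below are TPM, a transcript abundance that the authors' quantification divides by transcript length, so that levels of different genes can be set side by side. In IC, Max was the most abundant member, with 103 ± 16.3 TPM (SD, n = 3). Mycn (38.5 ± 6.55 TPM), Mycl (35.2 ± 2.86 TPM) and Mxd4 (34.3 ± 6.99 TPM) followed, and their library values overlapped. Mlx stood at 26.2 ± 3.23 TPM and overlapped with Mxd4, while Myc (19.5 ± 2.93 TPM) lay below Mlx in every library and overlapped with Mnt (16.8 ± 0.928 TPM). Mxd1 was the least abundant, with 10.3 ± 3.03 TPM. In the 3–100 kDa group the order was different. Max again led (109 ± 4.76 TPM), Myc was second (44.0 ± 7.61 TPM) and overlapped with Mlx (34.0 ± 1.94 TPM), and Mycl (8.83 ± 0.454 TPM) stood beside Mnt (8.88 ± 1.01 TPM).

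**Figure D1:**
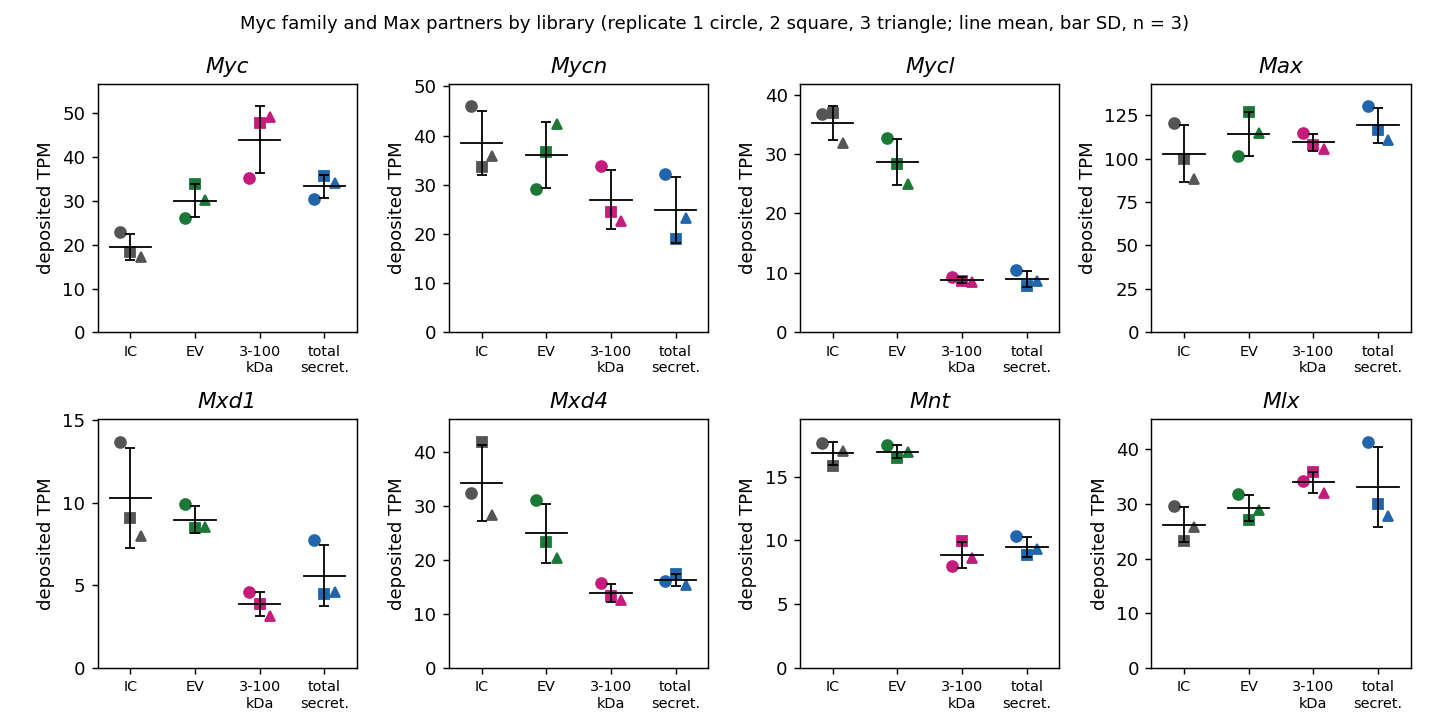
Deposited TPM of the 8 genes (vertical axis, from 0) in the 3 libraries of IC, EV, 3–100 kDa proteins and total secretome (horizontal axis), with the mean as a line and the SD as a bar. Mycl sits between 7.80 and 10.4 TPM in the 6 libraries of the last pair of groups and between 24.9 and 37.0 TPM in the 6 others, whereas the values of Max overlap throughout.

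Mycl, the family member first found amplified in small cell lung cancer, showed the largest difference of the 8 genes. Its level was 36.7, 37.0 and 31.9 TPM in IC, while EV had 32.7, 28.3 and 24.9 TPM, against 9.35, 8.63 and 8.51 TPM with 3–100 kDa proteins. With the total secretome it was 10.4, 7.80 and 8.72 TPM. The 3–100 kDa and total secretome groups therefore had all their libraries below every IC and every EV library, while EV and IC overlapped. The log2(TPM + 1) scale understates the change of genes at low levels, and more so the lower the level. On this scale the difference of Mycl from IC was −1.85 ± 0.14 (SE) for 3–100 kDa proteins and −1.84 ± 0.14 for the total secretome. Its mean TPM fell by 74.9% and 74.4%. Against IC, EV gave −0.30 ± 0.16.

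Myc moved the other way. It was at 22.8, 18.3 and 17.3 TPM in IC, and EV had 26.2, 33.8 and 30.3 TPM. It reached 35.3, 47.7 and 49.1 TPM with 3–100 kDa proteins and 30.4, 35.6 and 34.1 TPM with the total secretome. Every treated library lay above every IC library, and the 3–100 kDa libraries also lay above those of EV. The log2 difference from IC was 0.60 ± 0.15 for EV, 1.16 ± 0.19 for 3–100 kDa proteins and 0.77 ± 0.15 for the total secretome, or 54.5%, 126% and 71.4% more TPM on average.

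Mycn was at 46.0, 33.7 and 35.9 TPM in IC, and EV had 29.2, 36.7 and 42.4 TPM. It was at 33.8, 24.5 and 22.5 TPM with 3–100 kDa proteins and at 32.1, 19.0 and 23.3 TPM with the total secretome. The total secretome libraries were all below IC, and with 3–100 kDa proteins the highest library just exceeded the lowest of IC. Differences from IC were −0.48 ± 0.17 for 3–100 kDa proteins and −0.62 ± 0.19 for the total secretome, and the value for EV was −0.10 ± 0.19. None of the 3 was called at a false discovery rate (FDR, Benjamini-Hochberg over all genes) under 0.05.

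Max, the obligate partner, had no such pattern. Its libraries spanned 88.3 to 120.5 TPM in IC, 101.6 to 126.7 TPM in EV, 105.8 to 114.7 TPM with 3–100 kDa proteins and 110.7 to 130.1 TPM with the total secretome, and all these ranges overlapped with IC. The 95% interval of the log2 difference from IC was −0.18 to 0.47 for EV, −0.16 to 0.42 for 3–100 kDa proteins and −0.02 to 0.50 for the total secretome, and each interval included 0.

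The repressive partners were lower with 3–100 kDa proteins and with the total secretome. Mxd4 was at 32.5, 42.0 and 28.3 TPM in IC, and EV had 31.1, 23.3 and 20.4 TPM. It was at 15.7, 13.4 and 12.5 TPM with 3–100 kDa proteins and at 16.2, 17.4 and 15.3 TPM with the total secretome. These last 6 libraries were all below the 6 of IC and EV, and the log2 differences from IC were −1.21 ± 0.17 and −0.99 ± 0.16. For EV the difference was −0.45 ± 0.22, with overlapping libraries.

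Mnt, the most widely expressed Max-binding repressor and an antagonist of Myc, had the smallest spread of the 8 genes in IC, relative to its mean. Its values were 17.6, 15.8 and 17.0 TPM in IC, while EV had 17.5, 16.5 and 16.9 TPM, followed by 7.998, 9.99 and 8.66 TPM with 3–100 kDa proteins and 10.4, 8.85 and 9.29 TPM with the total secretome. EV lay within the spread of IC (log2 difference 0.00 ± 0.15), and the other groups lay wholly below it (−0.83 ± 0.16 and −0.75 ± 0.14).

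Mxd1, a repressor induced in differentiating cells, was at 13.7, 9.08 and 7.99 TPM in IC, and EV had 9.91, 8.44 and 8.55 TPM. It was at 4.59, 3.87 and 3.11 TPM with 3–100 kDa proteins and at 7.74, 4.45 and 4.56 TPM with the total secretome. Again the last 2 groups did not overlap with IC, although the highest total secretome library lay just below the lowest of IC. The log2 differences from IC were −1.16 ± 0.21 and −0.76 ± 0.23, and −0.15 ± 0.21 for EV.

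Mlx was at 29.7, 23.3 and 25.7 TPM in IC, against 34.2, 35.8 and 31.9 TPM with 3–100 kDa proteins, which did not overlap. EV (31.9, 27.1 and 28.9 TPM) and the total secretome (41.4, 29.9 and 27.8 TPM) overlapped with IC. The log2 differences were 0.40 ± 0.13 for 3–100 kDa proteins, 0.33 ± 0.15 for the total secretome and 0.15 ± 0.16 for EV, none called at the FDR threshold.

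**Figure D2:**
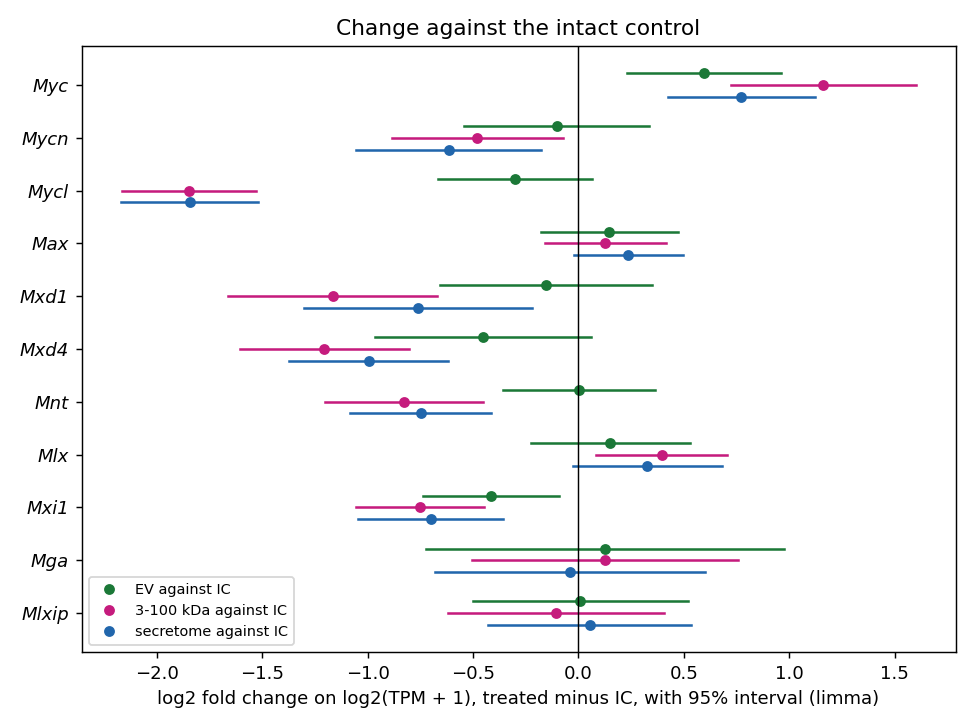
Log2 difference from IC on the log2(TPM + 1) scale (horizontal axis) for the 8 genes and for Mxi1, Mga and Mlxip (vertical axis), with points for EV, 3–100 kDa proteins and total secretome and lines for the 95% interval of limma. Mycl reaches −1.85 and −1.84 with 3–100 kDa proteins and total secretome, Myc is above 0 with all 3, and Max stays between 0.13 and 0.24.

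Counted over the 8 genes, limma called 0 for EV against IC at an FDR under 0.05, 5 for 3–100 kDa proteins (Myc higher, Mycl, Mxd1, Mxd4 and Mnt lower) and 3 for the total secretome (Mycl, Mxd4 and Mnt, all lower). Among all genes tested the shares called were 0.141%, 3.31% and 1.97%. By a looser rule (p under 0.05 without adjustment, fold change over 1.5), the counts were 1, 5 and 6 of 8, against 2.15%, 10.0% and 8.08% of all genes, and the 1 gene for EV was Myc. Libraries did not overlap with IC for 1, 6 and 6 members, against 5.12%, 20.6% and 20.2% of all genes. These counts use the values that led to the choice of the 8 genes, and nothing is read from them beyond the description. Replicate numbers paired the total secretome and IC libraries, and with the number as a block Mnt was no longer called there, which left 2 members (Mycl and Mxd4). Numbers were not read as pairs for 3–100 kDa proteins and IC. With the block in that comparison only Mycl of the 8 was called, and calls over all genes went from 424 to 192.

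The calls of genes other than Mycl changed with single libraries left out, and so did the number of calls over all genes. With 3–100 kDa proteins 1 to 5 members were called when single libraries were left out. Only Mycl was called without replicate 1 of IC or without replicate 2 or 3 of the 3–100 kDa group, Mycl and Mxd4 without replicate 3 of IC, and Myc, Mycl and Mxd4 without replicate 1 of the 3–100 kDa group. For the total secretome only Mycl was called whichever library was left out, apart from replicate 2 of IC, without which 4 members were called. Over all genes, 424 were called with 3–100 kDa proteins in the full fit. That number was 483 without replicate 2 of IC and 88 to 247 without any other library. For the total secretome the same numbers were 252, 809 and 31 to 146. The size of the Mycl difference ranged from −1.88 to −1.80 and from −1.90 to −1.75 over these refits.

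EV was also compared directly with the other preparations. Mycl was higher in EV by 1.56 ± 0.16 against 3–100 kDa proteins and by 1.56 ± 0.17 against the total secretome, and it was the only member called by limma in either comparison (shares of all genes 0.533% and 0.188%). Mnt was 0.84 ± 0.16 and 0.77 ± 0.15 higher in EV, Mxd4 0.76 ± 0.19 and 0.55 ± 0.19, and Mxd1 1.02 ± 0.19 and 0.62 ± 0.22. For these 3 repressors the libraries did not overlap in either comparison. Myc was lower in EV than with 3–100 kDa proteins by a log2 difference of −0.55 ± 0.19 with no overlap, whereas EV and total secretome libraries overlapped (−0.16 ± 0.15). In all, libraries did not overlap for 6 of 8 members against 3–100 kDa proteins and for 4 of 8 against the total secretome, where 14.2% and 11.8% of all genes did not. By the looser rule the counts were 4 and 3 of 8, against 5.14% and 3.98% of all genes. Replicate numbers paired the EV and 3–100 kDa libraries, and with the number as a block 4 members were called there (Mycl, Mxd1, Mxd4 and Mnt). These calls of Mycl also changed with single libraries left out. Mycl was called in both comparisons without replicate 1 of EV, and 0 members were called without replicate 2 or 3 of EV or without any of the 3 libraries of the other group. In the refits with 0 members called, 2 to 22 of all genes were called against 3–100 kDa proteins and 0 to 14 against the total secretome. The full fits called 68 and 24. The Mycl difference ranged from 1.45 to 1.64 and from 1.44 to 1.64 over all these refits.

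Between the total secretome and the 3–100 kDa proteins the libraries of all 8 genes overlapped. The widest differences, total secretome minus 3–100 kDa, were 0.41 ± 0.21 for Mxd1 and −0.38 ± 0.18 for Myc. Of the 8, limma called 0 at an FDR under 0.05, 0 had an unadjusted p under 0.05 and 0 had libraries that did not overlap (0.0157%, 2.65% and 5.02% of all genes), and the looser rule also called 0 (1.25% of all genes). The genes were chosen on these libraries, and these counts too are a description, which does not show that both preparations act alike. For Mycl the difference was 0.01 with a 95% interval from −0.34 to 0.37. Replicate numbers paired these libraries. Within the 3 pairs the TPM of Myc was lower with the total secretome in 3, that of Mxd1, Mxd4 and Max was higher in 3, and the other members differed in sign between pairs. With the number as a block limma again called 0 members.

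Since Max binds either side, the levels were also summed by role. Myc, Mycn and Mycl together came to 93.1 ± 10.8 TPM in IC, 94.8 ± 5.92 TPM in EV, 79.8 ± 1.23 TPM with 3–100 kDa proteins and 67.2 ± 5.39 TPM with the total secretome. Mxd1, Mxd4 and Mnt together came to 61.4 ± 7.09, 50.9 ± 6.74, 26.6 ± 2.06 and 31.4 ± 2.64 TPM in the same order. This second sum leaves out Mxi1, a further repressor described below, with means of 42.2, 31.6, 24.1 and 25.3 TPM in that order. For both sums, every library of the 3–100 kDa and total secretome groups was below every IC library.

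The ratio of the first sum to the second was 1.65, 1.33 and 1.59 in the IC libraries and 1.502, 2.05 and 2.13 in EV. Adding Mxi1 to the second sum would lower every ratio, and such a ratio was not computed. The overlaps between groups given here hold only for the ratio without Mxi1. It was 2.77, 2.96 and 3.30 with 3–100 kDa proteins and 2.13, 2.03 and 2.27 with the total secretome. The 3–100 kDa libraries were above all others, and those of the total secretome were above IC and overlapped with EV. The composition of the first sum differed more than its size. Myc made up 20.8 ± 0.688% of it in IC, 31.6 ± 2.29% in EV, 55.1 ± 8.82% with 3–100 kDa proteins and 50.1 ± 7.81% with the total secretome, while the share of Mycl was 37.9 ± 3.41%, 30.4 ± 5.98%, 11.1 ± 0.737% and 13.3 ± 0.913%. These sums hold the same values as the single genes and are not further evidence. They are of transcripts, and protein was not measured.

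**Figure D3:**
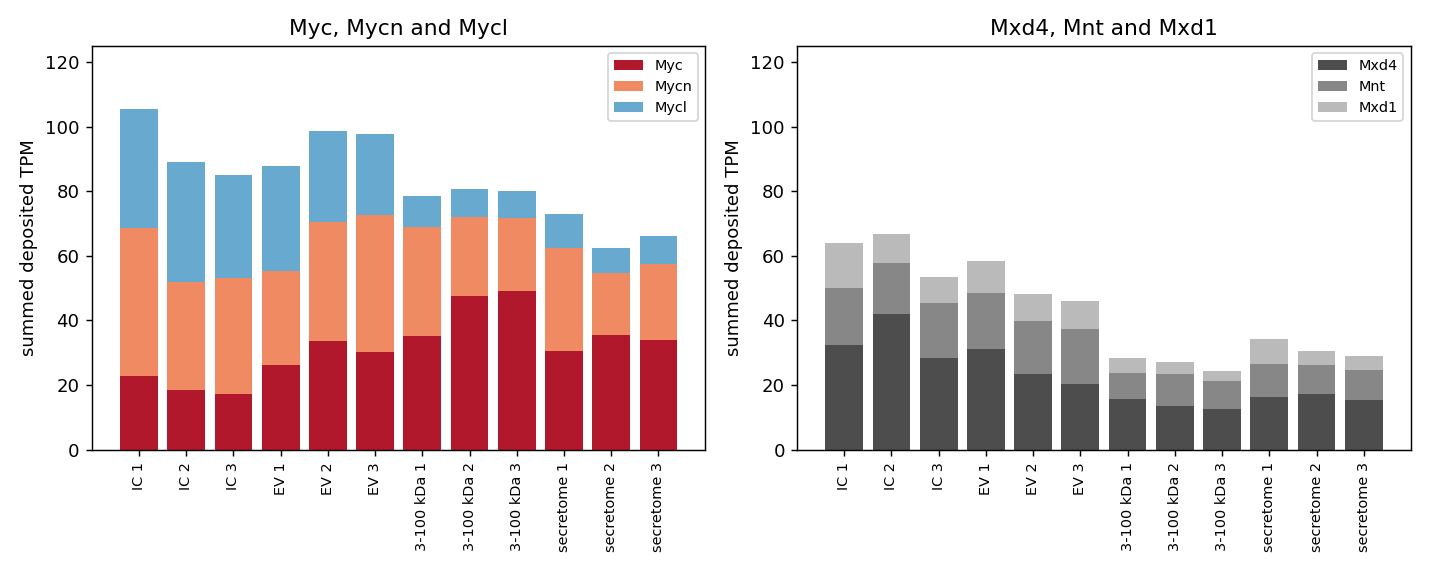
Summed deposited TPM (vertical axes, from 0) of Myc, Mycn and Mycl on the left and of Mxd4, Mnt and Mxd1 on the right, stacked by gene, in each of the 12 libraries (horizontal axis). On the left the sum runs from 62.4 to 105.4 TPM with Mycl shrinking and Myc widening in the last 6 libraries, and on the right it runs from 24.3 to 66.9 TPM.

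Other genes of the network were read from a list written from general knowledge. Mxi1, the Max-interacting repressor also named Mxd2, was at 47.0, 42.0 and 37.7 TPM in IC, 28.3, 36.0 and 30.6 TPM in EV, 22.5, 27.0 and 22.9 TPM with 3–100 kDa proteins and 22.3, 27.8 and 25.8 TPM with the total secretome. All treated libraries were below IC. Mxi1 fell with 3–100 kDa proteins (log2 difference −0.75 ± 0.13, limma adjusted p = 0.0258), whereas the values for the total secretome (−0.70 ± 0.15, adjusted p = 0.0648) and EV (−0.42 ± 0.14, adjusted p = 0.9998) did not pass. Mga, a large scaffold that pairs with Max, and Mlxip, a partner of Mlx, passed in none of the 3 comparisons, with log2 differences between −0.11 and 0.13. Mlxipl was listed at 0 in 9 of 12 libraries and reached at most 0.413 TPM.

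Cofactors and turnover factors of Myc were listed too, such as the scaffold Trrap, the acetyltransferase Kat5 and the ubiquitin ligase subunits Fbxw7 and Skp2. Of 15 genes tested, limma called 0 in each of the 3 comparisons with IC. An unadjusted p under 0.05 was found for 0 with EV, 1 with 3–100 kDa proteins and 2 with the total secretome, where 2.82%, 17.0% and 16.2% of all genes had one. Wdr5, a chromatin adaptor that holds Myc at its targets, was at 59.0 ± 3.80 TPM with the total secretome and 45.6 ± 8.27 TPM in IC (0.40 ± 0.14, adjusted p = 0.206). Skp2 was at 16.3 TPM with the total secretome, 15.3 TPM with 3–100 kDa proteins and 11.7 TPM in IC (0.46 ± 0.18, adjusted p = 0.275, and 0.39 ± 0.17, adjusted p = 0.310). Its libraries lay above those of IC in both, and neither difference passed the test in limma. Among the corepressors used by Mxd proteins and Mnt, the histone deacetylase Hdac2 was 0.23 ± 0.11 higher with 3–100 kDa proteins than in IC (adjusted p = 0.372) and the scaffold Sin3a differed by −0.30 ± 0.17 (adjusted p = 0.434), and neither passed the test in limma.

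Genes that Myc is known to promote were taken from lists of ribosome biogenesis and of metabolism and growth, also written from general knowledge with earlier results of these libraries known. Of 48 genes tested in both lists, 8 rose with 3–100 kDa proteins, 4 rose with the total secretome and 0 passed for EV, and 0 fell in any of the 3 comparisons (limma, FDR under 0.05). The shares of all genes called were 3.31%, 1.97% and 0.141%. At an unadjusted p under 0.05 the counts of list genes were 28, 30 and 5, all higher, while 17.0%, 16.2% and 2.82% of all genes had such a p in either direction. The count of 8 was 19 without replicate 2 of IC and 0 to 4 without any other library. That of 4 was 24 without replicate 2 of IC and 0 to 2 without any other. Calls over all genes rose and fell in the same refits, as given above. With the replicate number as a block the count of 8 became 2, although numbers were not read as pairs for 3–100 kDa proteins and IC.

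For the 26 ribosome biogenesis genes the median log2 difference from IC was 0.21 for EV, 0.52 for 3–100 kDa proteins and 0.44 for the total secretome, beside −0.01, −0.02 and −0.01 for all genes. It was above 0 for 25, 26 and 26 of the 26. Wdr43, a factor of early ribosomal RNA processing, was at 28.3, 29.5 and 24.8 TPM in IC, against 57.6, 58.0 and 60.4 TPM with 3–100 kDa proteins (1.096 ± 0.13, adjusted p = 0.0064). With the total secretome it was at 44.6, 54.4 and 49.0 TPM (0.83 ± 0.14, adjusted p = 0.0321). Rrs1, a ribosome assembly factor, was at 28.9, 29.7 and 22.8 TPM in IC, 62.6, 49.8 and 46.9 TPM with 3–100 kDa proteins (0.97 ± 0.15, adjusted p = 0.0156) and 47.0, 51.3 and 48.0 TPM with the total secretome (0.85 ± 0.13, adjusted p = 0.0236). Both genes were higher than IC in every treated library. EV values were between, at 40.5, 41.0 and 33.05 TPM for Rrs1 and 39.8, 41.2 and 32.2 TPM for Wdr43, and did not pass (adjusted p = 0.9998 for each). Ddx21, an RNA helicase of the nucleolus, rose from 36.5 ± 7.41 TPM in IC to 82.6 ± 19.1 TPM with 3–100 kDa proteins and 73.4 ± 6.17 TPM with the total secretome. Nip7, which acts in pre-ribosomal RNA processing, rose with 3–100 kDa proteins (0.78 ± 0.12, adjusted p = 0.0200).

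For the 22 genes of metabolism and growth the medians were 0.16, 0.40 and 0.34. Hk2, the hexokinase isoform induced by growth signals, was at 2.27, 1.92 and 2.05 TPM in IC, 6.62, 9.29 and 9.60 TPM with 3–100 kDa proteins (1.63 ± 0.22, adjusted p = 0.0102) and 5.37, 7.97 and 6.86 TPM with the total secretome (1.33 ± 0.22, adjusted p = 0.0273). In EV it was at 3.23, 3.86 and 3.70 TPM, again above all IC libraries but without passing (adjusted p = 0.9998). Mthfd2, a mitochondrial enzyme of folate metabolism, was at 14.4 ± 4.70 TPM in IC, 30.4 ± 4.69 TPM with 3–100 kDa proteins (adjusted p = 0.0464) and 28.7 ± 5.04 TPM with the total secretome (adjusted p = 0.0696). Odc1, the rate-limiting enzyme of polyamine synthesis and a classical Myc target, was at 237 ± 25.5 TPM in IC, 289.8 ± 16.5 TPM in EV (0.28 ± 0.14, adjusted p = 0.9998), 311.6 ± 30.6 TPM with 3–100 kDa proteins (0.42 ± 0.12, adjusted p = 0.130) and 303.8 ± 25.7 TPM with the total secretome (0.38 ± 0.12, adjusted p = 0.175).

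**Figure D4:**
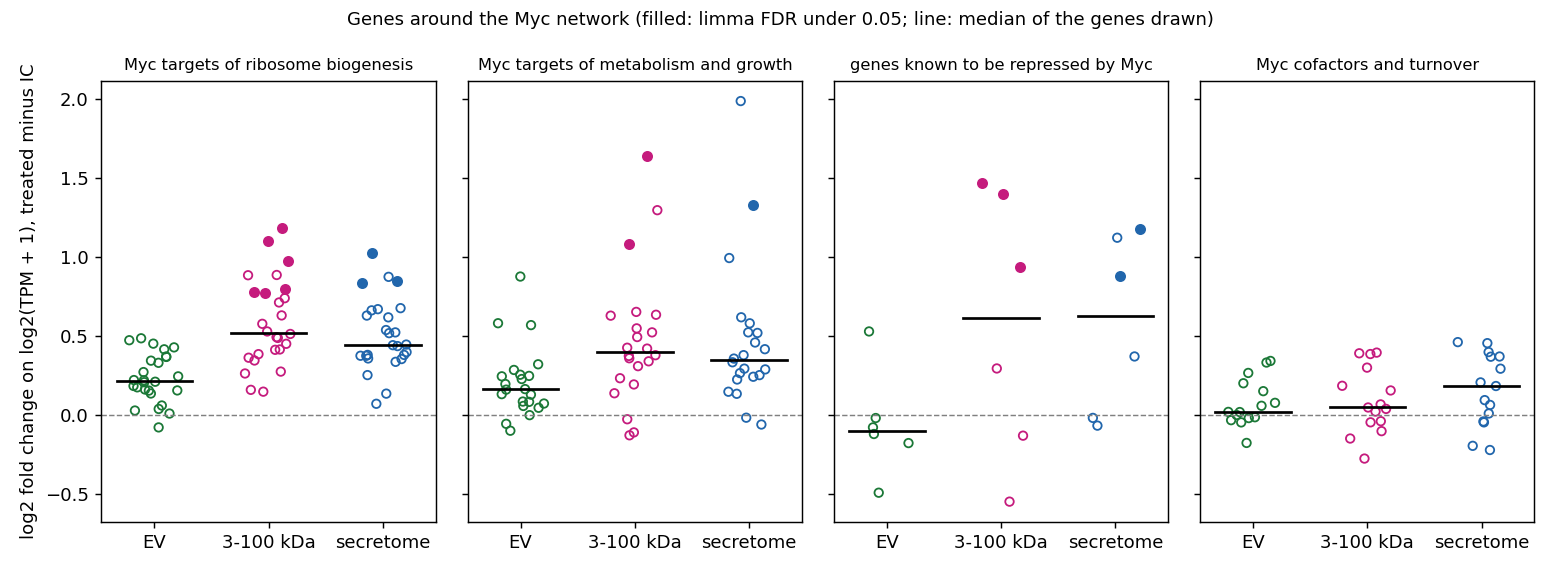
Log2 difference from IC on the log2(TPM + 1) scale (vertical axis) for single genes of 4 lists (panels) with EV, 3–100 kDa proteins and total secretome (horizontal axis), filled where limma called the gene at an FDR under 0.05, with the median of the genes drawn as a line. The 26 ribosome biogenesis genes lie above 0 in the last 2 columns, and Cdkn2b, listed at 0 in IC, is not drawn.

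Of the genes that Myc is known to repress, 0 fell. Of the 6 tested without a listed 0 throughout IC, 3 rose with 3–100 kDa proteins and 2 with the total secretome, and 0 of 6 passed for EV (0 also at an unadjusted p under 0.05), where 3.31%, 1.97% and 0.141% of all genes were called. Those that rose are also known as genes of stress, growth arrest and differentiation. Cdkn1a, the cyclin-dependent kinase inhibitor p21, was at 24.3, 22.8 and 29.0 TPM in IC, 49.0, 80.9 and 74.6 TPM with 3–100 kDa proteins and 53.9, 59.5 and 59.1 TPM with the total secretome (1.397 ± 0.24, adjusted p = 0.0250, and 1.18 ± 0.17, adjusted p = 0.0167). Ndrg1, a stress-responsive gene, rose from 121 ± 17.3 TPM to 228 ± 27.8 TPM and 221 ± 29.8 TPM. Cebpa, a differentiation factor, rose with 3–100 kDa proteins (1.47 ± 0.24, adjusted p = 0.0227). The other gene tested, Cdkn2b, the inhibitor p15, was listed at 0 in the 3 IC libraries and at 1.64, 4.12 and 3.95 TPM with 3–100 kDa proteins and 2.02, 1.92 and 3.30 TPM with the total secretome. It is left out of the counts and no fold change is given for it, since a listed 0 can be a failed estimate. Rps6, a ribosomal protein gene that every cell uses, also had 0 in each of the 12 libraries.

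For the Mlx side, 5 target genes of its partners were listed and 4 tested, and limma called 0 in the 3 comparisons with IC. The 1 gene with an unadjusted p under 0.05, with 3–100 kDa proteins and with the total secretome, was Txnip, a glucose-responsive inhibitor of thioredoxin. Txnip was at 52.3, 33.8 and 21.5 TPM in IC, 23.9, 13.5 and 7.90 TPM with 3–100 kDa proteins and 20.2, 11.4 and 6.92 TPM with the total secretome. The adjusted p was 0.158 and 0.108 in limma. In each of these groups replicate 1 was the highest and replicate 3 the lowest. With the replicate number as a block, which paired the total secretome and IC libraries, Txnip was called there (−1.42 ± 0.13, adjusted p = 0.0071). The block also called it for 3–100 kDa proteins (−1.20 ± 0.17, adjusted p = 0.0389), where numbers were not read as pairs with IC.

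The E-box was compared between the target genes as a further description. It was in the promoter window of 13 of 45 genes of both promoted lists with a sequence, or 28.9%, beside 7.08% of all genes, and in 0 of 5 of the repressed list. Median log2 differences of promoted genes with and without it were 0.21 and 0.17 for EV, 0.45 and 0.42 for 3–100 kDa proteins and 0.44 and 0.38 for the total secretome (13 and 31 of the genes tested). Among the genes named above, Hk2, Mthfd2, Odc1, Ddx21 and Nip7 had no such motif in the window. Wdr43 and Rrs1 had no matched promoter sequence and were not searched.

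Genes whose pattern was most like that of Myc and Mycn were sought among 13269 genes, by the mean absolute difference of log2(TPM + 1) values centred on each gene's mean over the 12 libraries. Nearest to Myc were Col1a1, a collagen chain at low level here (0.0365 to 1.81 TPM, distance 0.0953), Eaf1, an elongation factor partner, Atf1, a CREB-family factor, Rock2, a kinase of the actin cytoskeleton, and Nfkb1, an NF-κB subunit (distance 0.120), where the median of all genes was 0.437. Eaf1, for example, was at 6.56 ± 1.19 TPM in IC, 9.49 ± 1.11 TPM in EV, 16.05 ± 2.67 TPM with 3–100 kDa proteins and 11.98 ± 0.900 TPM with the total secretome, the same order as Myc. Nearest to Mycn were Rusc2, Lzts1, Elmod1, LOC690000 and Pcsk2, a proprotein convertase of neuroendocrine cells (distances 0.109 to 0.123, median of all genes 0.357).

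Cell type markers were read beside these results, because in bulk cultures fewer cells of a type and less RNA per cell cannot be told apart. The summed level of 5 neuronal markers was 2108 to 2228 TPM in IC, 2004 to 2227 TPM in EV, 1688 to 2002 TPM with 3–100 kDa proteins and 1652 to 2102 TPM with the total secretome, so that the last 2 groups lay below IC. Tubb3, a neuronal tubulin, made up most of that sum, with a mean of 1417 TPM in IC, 1159 TPM with 3–100 kDa proteins and 1151 TPM with the total secretome. In the same order, Map2, a protein of dendritic microtubules, had means of 226.8, 201.1 and 185.9 TPM, and Syt1, a calcium sensor of synaptic vesicles, 265.4, 244.1 and 221.4 TPM. Snap25, of the synaptic release machinery, had means of 168.1, 181.7 and 177.6 TPM, and Rbfox3, a nuclear marker of neurons, 77.5, 73.7 and 73.4 TPM. For each of these 5 genes the libraries overlapped with IC. Of the single markers of all lists, limma called 0 in the comparisons with IC, and the looser rule called 1 in each. It was the astrocyte filament gene Gfap for EV (1.58 ± 0.51, adjusted p = 0.9998, libraries all above IC) and for the total secretome (1.397 ± 0.55, adjusted p = 0.269, libraries overlapping), with means of 490.2 and 438 TPM beside 191 TPM in IC. For 3–100 kDa proteins it was the collagen gene Col1a1, at 1.29, 1.64 and 1.81 TPM beside 0.36, 0.04 and 0.26 TPM in IC. It met the filter of 1 TPM only through the 3–100 kDa libraries, so no test value is given and nothing is read from this call. For EV and the total secretome against IC it was not tested. Of 6 astrocyte markers the sum was 731 to 1043 TPM in IC, 1022 to 1395 TPM in EV, 880.0 to 1302 TPM with 3–100 kDa proteins and 1025 to 1460 TPM with the total secretome. Gfap accounted for most of the higher sum in EV, where the means of the other 5 were 269.6 TPM for Slc1a3, 204.1 TPM for S100b, 92.7 TPM for Aqp4, 90.4 TPM for Gja1 and 12.9 TPM for Aldh1l1, beside 250.7, 247.3, 87.6, 89.6 and 12.9 TPM in IC, each with overlapping libraries. Microglial markers (6 genes, at most 1.97 TPM) and endothelial markers (2 of 3 genes, at most 0.47 TPM) were close to 0, as were the 4 fibroblast markers, which summed to 0.27 to 0.54 TPM in IC and 0.58 to 1.96 TPM in the treated groups. The 4 markers of dividing cells overlapped between all groups, from 62.5 to 170.8 TPM. Excitatory neuron markers (3 genes, 173.6 to 360.0 TPM over all libraries), inhibitory neuron markers (3 genes, 228 to 411 TPM) and oligodendrocyte markers (4 genes, 16.4 to 55.2 TPM) overlapped between IC and each treated group. The 3 markers of oligodendrocyte precursors summed to 81.9 to 95.1 TPM in IC and to 105.4 to 115.9 TPM with the total secretome, with the other groups overlapping IC. Of 26 markers tested for the total secretome, Gfap and the precursor gene Olig2 had an unadjusted p under 0.05, where 16.2% of all genes had one. Olig2 (0.53 ± 0.13, limma adjusted p = 0.0958) and the astrocyte gene Slc1a3 lay above IC in all total secretome libraries. The inhibitory neuron gene Slc32a1 lay below IC in all of them. No marker was listed at 0 in all 12 libraries. The part of cell composition in the differences of the Myc network was not tested.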

How the data were processed

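Poly(A) RNA was sequenced in 12 libraries, 3 in each of 4 groups taken from the labels. According to their methods, the authors trimmed reads with Trimmomatic and Cutadapt, ran Salmon on the rat transcriptome (Rnor 6.0 in the labels) and used tximport to obtain values per gene. The labels and the methods differ on the library kit, the instrument and the age of the pups. The deposited values carry no unit name and were taken as TPM, since each library sums to 1000000. TPM holds no read depth, so the precision of single values is unknown, and no counting interval was computed. Rps6, a gene used by every cell, is listed at 0 in all libraries, and a listed 0 was not read as absence.

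Rows of one name were summed, values were rescaled by median-of-ratios factors within each comparison, and a gene was kept if 3 or more of the libraries compared had at least 1 deposited TPM. Each pair of groups was fitted in its own 6 libraries on log2(TPM + 1) with limma 3.58.1 (lmFit, eBayes with trend) in R 4.3.3, and p-values were adjusted by Benjamini-Hochberg over all genes (FDR under 0.05). A log2 difference is the first-named or treated group minus the other. This log-scale test stands in for the count test of the authors. Alternatives were pseudocounts of 0.1 and 0.5, other filters, no rescaling, quantile normalisation, 1 fit of all 12 libraries, no trend, the replicate block, the second call rule (unadjusted p under 0.05 and fold change over 1.5) and each library left out.

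The members and all gene lists were chosen with earlier results of these data known. Named were all members, Mxi1, Mga, Mlxip and Mlxipl, up to 3 genes of lowest p per list and comparison with IC, and the 5 genes nearest in pattern to Myc and to Mycn. Trrap, Kat5 and Fbxw7 are named as list members only. Hdac1, Hspe1 and Pecam1 of the lists were not analysed here, and some list genes are not reported here. The labels number libraries 1 to 3 in each group. Libraries with the same number deviated from the group means with correlations of 0.25, 0.16 and 0.16 for total secretome and IC, 0.59, 0.29 and 0.30 for EV and 3–100 kDa, 0.26, 0.19 and 0.21 for EV and total secretome, and 0.38, 0.21 and 0.24 for total secretome and 3–100 kDa, so these numbers were read as pairs, from the data alone. They were not for EV and IC (−0.08, −0.18 and 0.54) or 3–100 kDa and IC (−0.01, −0.25 and 0.25). Only comparisons with all 3 correlations positive were read as pairs. Total secretome libraries were thus paired with those of every other group, while IC was paired with the total secretome alone. These readings do not form a single scheme, and the labels do not say what a replicate number shares. The study's supplement names a day covariate for its plots of principal components. Which day a library belongs to was not given in the sources used here. No 2 libraries were identical. Promoter sequences are from RefSeq (GRCr8), which is another build than that of the reads.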

Additional observations from a re-analysis of the deposited data

How the results depend on the processing

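Of 720 log2 differences of members over all comparisons and alternatives, 718 moved by less than the spread between replicates. Of the called differences 0 changed sign. Of the others 16 did, 14 of them with a library left out, from a size of at most 0.15 to one of at most 0.04. The other 2 moved with a pseudocount of 0.1 and kept their direction. Counts of calls moved more. Members called for 3–100 kDa against IC (5) became 3 without a filter on low values and 1 with the replicate block, where Mycl was still called and Myc, Mxd1, Mxd4 and Mnt were not, although libraries of the same number did not deviate together in that comparison, and ranged from 1 to 5 with single libraries left out. For the total secretome against IC (3) the count was 2 without a filter and without rescaling (Mnt lost), 4 with a pseudocount of 0.5 and with all 12 libraries in 1 fit (Myc gained), 6 under the unadjusted rule and 1 to 4 with single libraries left out, and for EV against IC (0) it was 1 under the unadjusted rule. For EV against 3–100 kDa (1) it was 3 with all 12 libraries in 1 fit, 4 with the replicate block, 4 under the unadjusted rule and 0 to 1 with single libraries left out. For EV against the total secretome (1) it was 2, 3 and 0 to 1 with all 12 libraries, the unadjusted rule and single libraries left out. Mycl was called against IC for both 3–100 kDa and total secretome in every alternative run.

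Of the 48 Myc target genes, those called for 3–100 kDa (8) became 5 without a filter, 4 without rescaling, 19 with all 12 libraries in 1 fit, 5 without the trend, 2 with the replicate block, 16 under the unadjusted rule and 0 to 19 with single libraries left out. Those called for the total secretome (4) became 2 without a filter, 12 with all 12 libraries, 13 under the unadjusted rule and 0 to 24 with single libraries left out. Among the comparisons with paired numbers the block changed no call of a member beyond the loss of Mnt for the total secretome against IC and the gains named for EV against 3–100 kDa. For 3–100 kDa against IC, where the numbers were not read as pairs, the block ended the calls of the list genes Mxi1, Rrs1, Nop58, Nip7, Ddx21, Mthfd2, Cebpa and Ndrg1 (adjusted p from 0.0617 for Ndrg1 to 0.133 for Mxi1), while Wdr43, Hk2 and Cdkn1a were still called and Txnip was called in addition (−1.20 ± 0.17, adjusted p = 0.0389). The causes of these shifts were not tested. With 3 against 3 libraries an exact permutation test of a single value cannot go below p = 0.10, and none was used. TPM holds no depth, so what counting error allows for genes near 1 TPM is unknown.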
